A study of Mus musculus with 15 samples.

Results

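The mitochondrial ribosomal protein genes are the nuclear genes whose symbols begin with Mrpl (large subunit) or Mrps (small subunit) followed by a digit. Symbols holding -ps were left out, and at least 10 counts were required in at least 5 libraries of the deposited mouse gene table. The rule uses the symbol and abundance alone. It kept all 76 rows with a qualifying symbol, 47 Mrpl and 29 Mrps, of 37681 rows in the table. Of those 37681 rows, 15134 passed a filter on low counts and were tested, and every one of the 76 genes was among them. The rule's lower edge was reached by 1 gene only: Mrpl53 had 5 to 14 counts per library and at least 10 in 6 libraries, whereas the lowest count of any other member in any library was 133. No gene with a qualifying symbol fell outside the rule.

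The study compared thoracic aortas of adult male wildtype C57BL/6 mice, 10 to 12 weeks old, after a single gavage of 100 uL. Celecoxib and rofecoxib, both selective inhibitors of the prostaglandin-forming enzyme cyclooxygenase-2, were given at 30 mg/kg and 10 mg/kg, and control mice received the vehicle PEG-400 alone. The aortas were taken 6 h after the dose, at zeitgeber time 11, and each of the 3 groups had 5 polyA-selected libraries. The labels number the libraries 1 to 5 within each group, and these numbers name the libraries below. The doses of the 2 drugs differ, so drug and dose cannot be told apart between them.

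The mitochondrial ribosome translates the few messenger RNAs that the mitochondrial genome encodes, all of them for subunits of the respiratory chain and ATP synthase. Its protein subunits are encoded in the nucleus, made in the cytosol and imported. Some have counterparts in the bacterial ribosome and others are specific to mitochondria, and mutations in several of them cause inherited disorders of oxidative phosphorylation. Vascular smooth muscle, the main cell type of the aortic wall, has a modest mitochondrial content, while brown adipocytes, which can lie around the thoracic aorta, are rich in mitochondria. A few symbols mislead on position: the proteins of Mrps18a and Mrps30 sit in the large subunit in mammals, and Mrps36 is now known as a component of the alpha-ketoglutarate dehydrogenase complex; the counts by symbol keep them where the symbol puts them.

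Library totals were nearly equal, from 30937046 to 30967115 counts, and between 19158 and 19746 genes were detected per library. The members together took 0.155% to 0.195% of the counts. All 10 smooth muscle markers were tested, with group means of 10.7 to 10.8 on the log2 CPM scale (CPM, the count scaled to a common library size and composition), and 13 of 14 brown adipocyte markers passed the filter too, with Zic1 under 10 counts in every library. All 37 rows of the mitochondrial chromosome were 0, so the messenger RNAs that these ribosomes translate were not analysed here.

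The promoters of the members were examined because the members' fold changes shared a sign, as given below. RefSeq promoter windows (GRCm38.p6, from 250 bases before to 50 bases after a gene's start) matched 67 of the 76 members, with 73 windows in all. Motifs were searched as plain letters on both strands, and the matches are descriptions of the letters, not binding sites. The core of the ETS motif, CCGGAA, which is part of the longer ACTTCCGG, was in 41 of the 73 windows, of 38 genes (56.2% of windows), against 14.9% of all 32851 windows. The longer ETS motif was in 12 (16.4%, against 3.89%), the YY1 motif AAGATGGCG in 8 (11%, against 1.4%), the palindromic NRF1 motif in 3 (4.11%, against 0.971%), and its looser form with the middle 2 bases left free, which includes the full motif, in 13 (17.8%, against 6.23%). The E-box CACGTG was in 7 windows (9.59%, against 7.15%), which belong to 5 of the 67 genes because 3 of them are overlapping windows of Mrpl2, the cyclic AMP response element TGACGTCA in 2 (2.74%, against 1.79%), TATAAA in 5 (6.85%, against 13.6%) and the oestrogen-related receptor motif TCAAGGTCA in 0, against 0.423% of all windows. Median GC content was 58.3% in the member windows and 52.7% in all windows, which also bears on how often GC-rich letters occur. The 120 bases before the start are shown for some members described closely below, picked by hand: 5 with low drug-group values and Mrpl33 with the opposite sign. Mrps36 and Mrps18c, also described closely, had windows but are not shown. Motif letters are in capitals, and each sequence is written 5′ to 3′ on the plus strand.
Mrps2, chr2:28467946-28468065: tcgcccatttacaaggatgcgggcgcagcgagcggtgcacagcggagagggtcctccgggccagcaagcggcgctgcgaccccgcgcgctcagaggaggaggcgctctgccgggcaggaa
Mrpl34, chr8:71464806-71464925: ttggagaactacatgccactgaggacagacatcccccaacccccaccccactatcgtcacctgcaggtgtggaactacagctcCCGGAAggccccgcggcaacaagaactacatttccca
Mrpl12, chr11:120484517-120484636: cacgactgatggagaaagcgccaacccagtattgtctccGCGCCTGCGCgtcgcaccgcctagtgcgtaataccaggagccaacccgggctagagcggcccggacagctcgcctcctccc
Mrpl36, chr13:73330889-73331008: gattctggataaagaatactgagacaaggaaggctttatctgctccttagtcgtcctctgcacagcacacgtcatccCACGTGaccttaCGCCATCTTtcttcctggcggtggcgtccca
Mrpl9, chr3:94443216-94443335: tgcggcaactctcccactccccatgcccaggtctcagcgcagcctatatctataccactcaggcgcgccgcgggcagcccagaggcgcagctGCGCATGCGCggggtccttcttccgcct
Mrpl33, chr5:31613831-31613950: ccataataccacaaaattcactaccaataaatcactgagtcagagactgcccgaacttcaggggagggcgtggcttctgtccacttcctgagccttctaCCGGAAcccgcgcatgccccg
The capitals mark the ETS core in Mrpl34 (first base at position -37 from the start) and Mrpl33 (-21), the looser NRF1 form in Mrpl12 (-81), the E-box (-43) and the YY1 motif on the other strand (-31) in Mrpl36, and the full NRF1 motif in Mrpl9 (-28). None of the letters searched was in the stretch shown for Mrps2.

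In the vehicle aortas the members spanned a wide range of levels. CPM per kilobase of coding length, from the group mean of the 5 libraries, had a median of 35.4 over the 75 members with a known coding length (Mrpl33 had none in the annotation used). Mrpl51, a mitochondria-specific protein of the large subunit, was the highest at 108 ± 13.9 (SD, n = 5), followed by Mrps21 at 100.2 ± 6.94 and Mrps17 at 97.8 ± 3.19. The ranges of these 3 over the 5 libraries overlap. At the other end were Mrps27 at 12.1 ± 1.08, Mrps22 at 10.5 ± 2.07 and, far below, Mrpl53 at 0.836 ± 0.257; the ranges of Mrps27 and Mrps22 overlap. Lengths matter for this order: per kilobase of all annotated exon sequence, Mrps21 ranked 1, Mrpl51 ranked 44 and Mrps17 ranked 63.

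**Figure D1:**
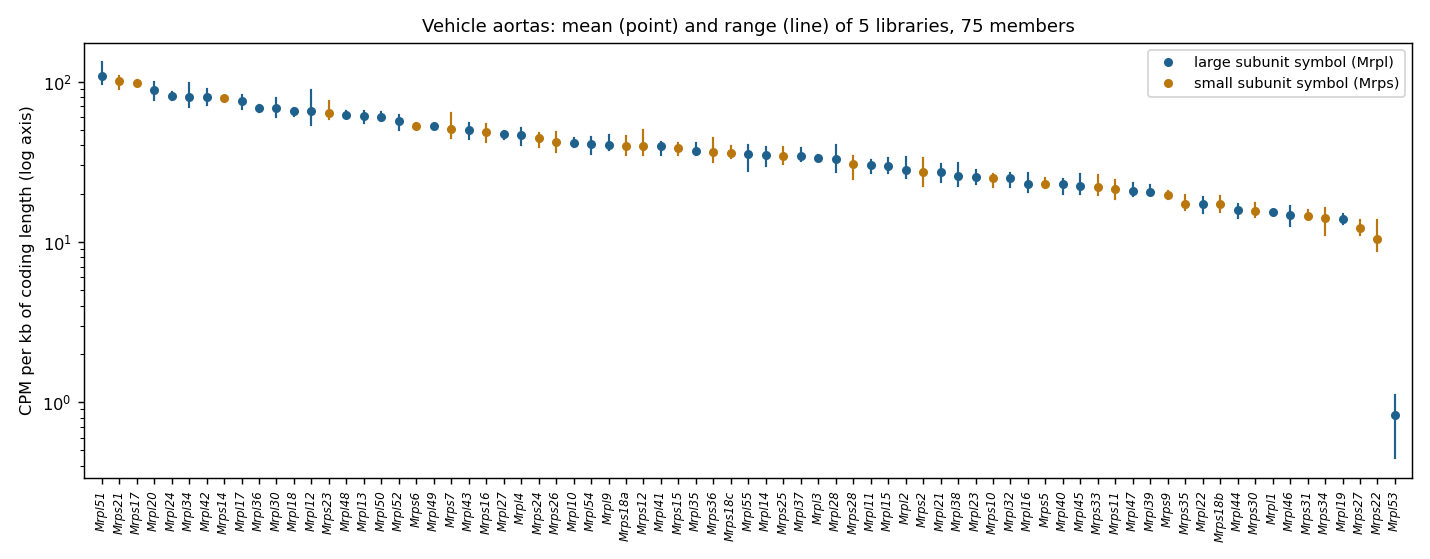
Level of 75 members in the vehicle aortas, in CPM per kilobase of coding length on a log axis, with points for the mean of 5 libraries and lines for their range. Mrpl51, at 108, stands first and Mrpl53, at 0.836, last, well below Mrps22 at 10.5.

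Most members varied little between libraries of 1 group. Their median SD of log2 CPM within groups was 0.118, against 0.177 over all genes tested. The 2 sets were not matched for level, and every member but Mrpl53 had at least 133 counts in every library. The least variable were Mrps14 (0.049), Mrpl48 (0.050) and Mrpl49 (0.064), and the most variable were Mrpl53 (0.435), which has few counts, Mrps33 (0.213) and the stalk protein gene Mrpl12 (0.209). The 5 vehicle libraries of Mrps14 had 30.1, 30.5, 29.9, 30.3 and 30.5 CPM. Its SD was 0.247 CPM with vehicle, 1.34 with celecoxib and 1.01 with rofecoxib, so the vehicle values alone do not show how tight the measurement was.

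Celecoxib against vehicle asked which genes differed 6 h after the celecoxib dose. Most mitochondrial ribosomal protein genes had slightly lower values in the celecoxib aortas, but no single one passed the test. Of 76 members, 70 had a negative log2 fold change, against 48.6% of all genes tested, and the members' median was -0.12, a fold of 0.918, with the middle 50% between -0.19 and -0.06; over all genes the median was 0.005. The quasi-likelihood test of edgeR, adjusted over 15134 genes by the Benjamini-Hochberg method, called 0 members at an adjusted p under 0.05 (background 0%), and the smallest adjusted p of a member was 0.260. At an unadjusted p under 0.05, 25 members were lower and 0 higher, beside a background of 7.18% lower and 5.35% higher. That count was 13 without vehicle library 5 or without celecoxib library 5, beside 4.57% and 6.69% of all genes lower in those fits. It was 4, beside 3.34% of all genes, with a median of -0.026, once adipocyte markers entered the fit as a covariate. DESeq2 called 2 members, Mrps2 (adjusted p 0.0146) and Mrpl34 (adjusted p 0.0273), among 126 genes it called in this comparison, and limma-voom called 0. The differences were small: 16 members had a log2 fold change below -0.2 and 3 below -0.4.

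The 2 subunits looked alike in size of difference. The median log2 fold change was -0.12 over the 47 Mrpl genes and -0.13 over the 29 Mrps genes. It was -0.13 over the 29 members listed as mitochondria-specific and -0.12 over the 46 others apart from Mrps36. By position in the ribosome, the medians were -0.05 for the 4 genes of the core near the peptidyl transferase centre (Mrpl2, Mrpl3, Mrpl16, Mrpl27), -0.12 for the 6 at the peptide exit tunnel, -0.14 for the 6 of the central protuberance and -0.16 for the 5 of the messenger path and decoding site. These lists are short, and differences between them were not tested.

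The members with the smallest p in the small subunit were Mrps2 and Mrps36. Mrps2 encodes a small-subunit protein with a bacterial counterpart. It had 21.4, 19.4, 22.5, 25.7 and 29.2 CPM in vehicle libraries 1 to 5, 17.7, 16.99, 17.2, 19.8 and 16.4 with celecoxib, and 21.9, 20.1, 19.3, 18.7 and 19.8 with rofecoxib. All 5 celecoxib libraries lay below the vehicle median, and the groups overlapped only between the highest celecoxib library, 4, and the lowest vehicle library, 2. The log2 fold change against vehicle was -0.42 ± 0.09 (SE; unadjusted p = 0.00046, adjusted p 0.260). Mrps36 had 10.9, 9.94, 9.61, 11.2 and 13.7 CPM with vehicle, 8.37, 7.08, 8.63, 10.1 and 6.70 with celecoxib, and 9.97, 8.41, 9.17, 8.96 and 8.85 with rofecoxib. Celecoxib library 4 was again the one reaching into the vehicle range, and the log2 fold change was -0.44 ± 0.12 (adjusted p 0.269). As background, Mrps36 belongs to a Krebs cycle enzyme complex rather than the ribosome.

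In the large subunit, Mrpl34, Mrpl18, Mrpl36 and Mrpl47 had the smallest p. Mrpl34, a small protein with a bacterial counterpart, had 22.7, 19.7, 19.2, 21.8 and 27.2 CPM with vehicle, 16.5, 14.2, 16.2, 19.98 and 15.3 with celecoxib, and 17.4, 18.2, 16.0, 18.6 and 15.8 with rofecoxib. Celecoxib library 4 alone overlapped the vehicle range, and no rofecoxib library did. Its log2 fold change with celecoxib was -0.43 ± 0.10 (adjusted p 0.269). Mrpl18, of the central protuberance, averaged 35.5 ± 1.48 CPM with vehicle and 31.3 ± 1.86 with celecoxib (SD, n = 5). Its log2 fold change was -0.18 (adjusted p 0.269), with celecoxib library 2 at 34.6 CPM and the other 4 between 30.1 and 31.2. Mrpl47, near the exit tunnel, averaged 15.6 ± 1.23 and 13.4 ± 0.956 CPM, a log2 fold change of -0.22 (adjusted p 0.288).

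Mrpl36 was the only member whose celecoxib and vehicle libraries did not overlap; 0.74% of all genes had every celecoxib library below every vehicle library, and 0 members, against 0.555% of genes, had every one above. It encodes another small large-subunit protein with a bacterial counterpart. Its values were 21.5, 21.7, 19.8, 20.3 and 21.7 CPM with vehicle, 15.9, 18.4, 16.2, 19.6 and 18.9 with celecoxib, and 18.9, 19.5, 21.0, 21.5 and 19.8 with rofecoxib. The gap between the lowest vehicle library and the highest celecoxib library was small, and the rofecoxib libraries reached into both ranges. The log2 fold change with celecoxib was -0.24 ± 0.07 (adjusted p 0.269).

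The stalk of the large subunit recruits translation factors. Its mobile protein, encoded by Mrpl12, had 36.5, 33.3, 32.4, 41.2 and 53.6 CPM with vehicle, 31.3, 26.4, 27.7, 37.1 and 30.3 with celecoxib, and 33.8, 33.5, 29.3, 30.2 and 30.7 with rofecoxib. Vehicle library 5 was by far the highest, and celecoxib library 4 and rofecoxib libraries 1 and 2 lay above the lowest vehicle library. The log2 fold change with celecoxib was -0.37 ± 0.13 (adjusted p 0.294), and without vehicle library 5 it was -0.23. The stalk base gene Mrpl10 had a log2 fold change of -0.12 (adjusted p 0.357) and Mrpl11, its partner, -0.02 (adjusted p 0.951). Mrpl45, at the tunnel exit where the ribosome meets the inner membrane, had -0.14 (adjusted p 0.498), and Mrps12, of the decoding site, -0.17 (adjusted p 0.511).

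**Figure D2:**
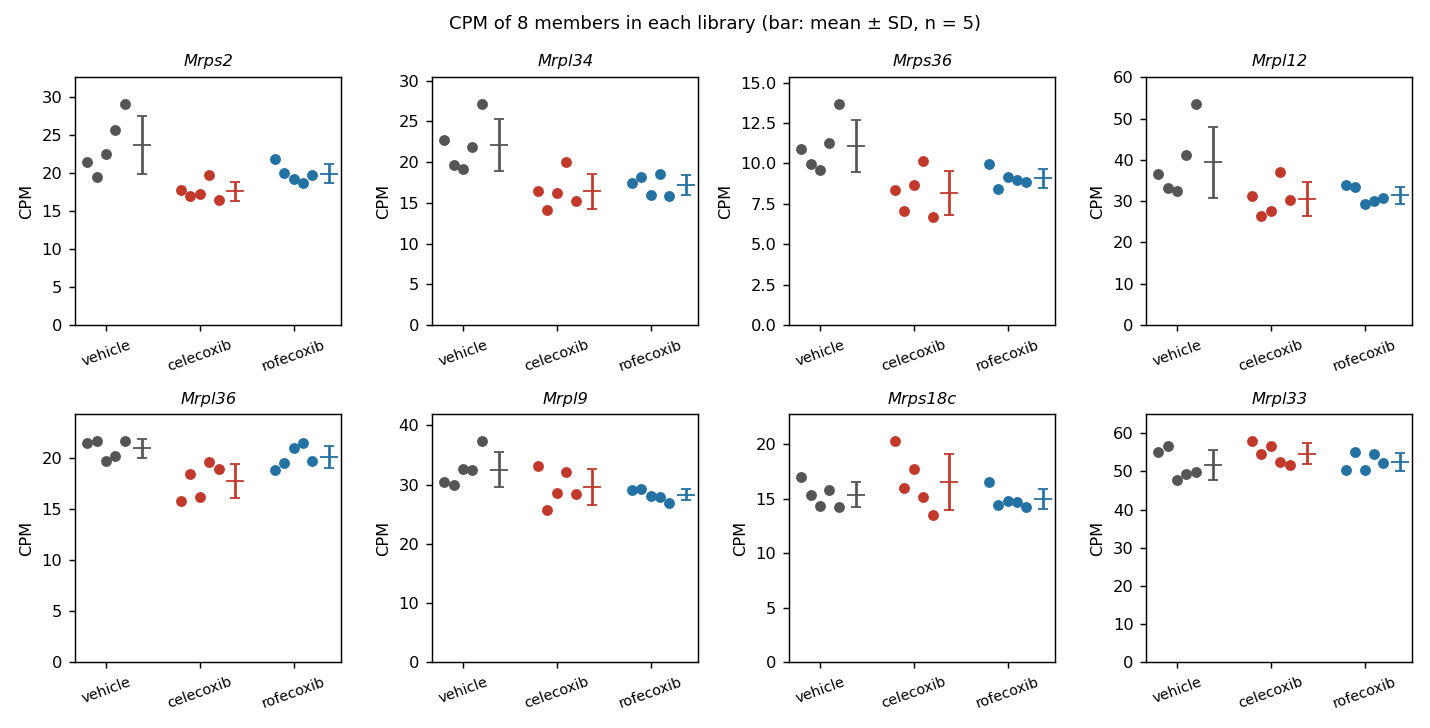
CPM of 8 members in each library, in panels with axes that start at 0; points are libraries 1 to 5 from left to right, and bars are the group mean ± SD (n = 5). Mrps2, Mrpl34 and Mrps36 sit lower in both drug groups with some overlap, vehicle library 5 is the highest for each of these and for Mrpl12, and Mrps18c and Mrpl33 do not sit lower with celecoxib.

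The remaining 6 members had a positive sign with celecoxib, all small and none past an unadjusted p of 0.05. Mrpl33, a large-subunit gene with a bacterial counterpart, had 55.2, 56.7, 47.8, 49.3 and 49.97 CPM with vehicle, 58.0, 54.7, 56.7, 52.5 and 51.6 with celecoxib, and 50.3, 55.1, 50.3, 54.6 and 52.2 with rofecoxib. The 3 groups overlapped, although all 5 celecoxib libraries were above the vehicle median. The log2 fold change was 0.08, with a 95% interval from -0.04 to 0.20. Mrpl27, of the peptidyl transferase centre, had 0.08 (interval -0.08 to 0.24). The 3 Mrps18 genes are paralogs whose proteins take different places in the ribosome. Mrps18c, the one most like the bacterial protein, had 0.11 (interval -0.10 to 0.31), with 17.001, 15.4, 14.3, 15.8 and 14.3 CPM with vehicle against 20.3, 16.0, 17.7, 15.1 and 13.5 with celecoxib. Mrps18a had -0.13 (interval -0.27 to 0.02) and Mrps18b -0.14 (interval -0.32 to 0.04), so the intervals of the 3 paralogs overlapped.

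**Figure D3:**
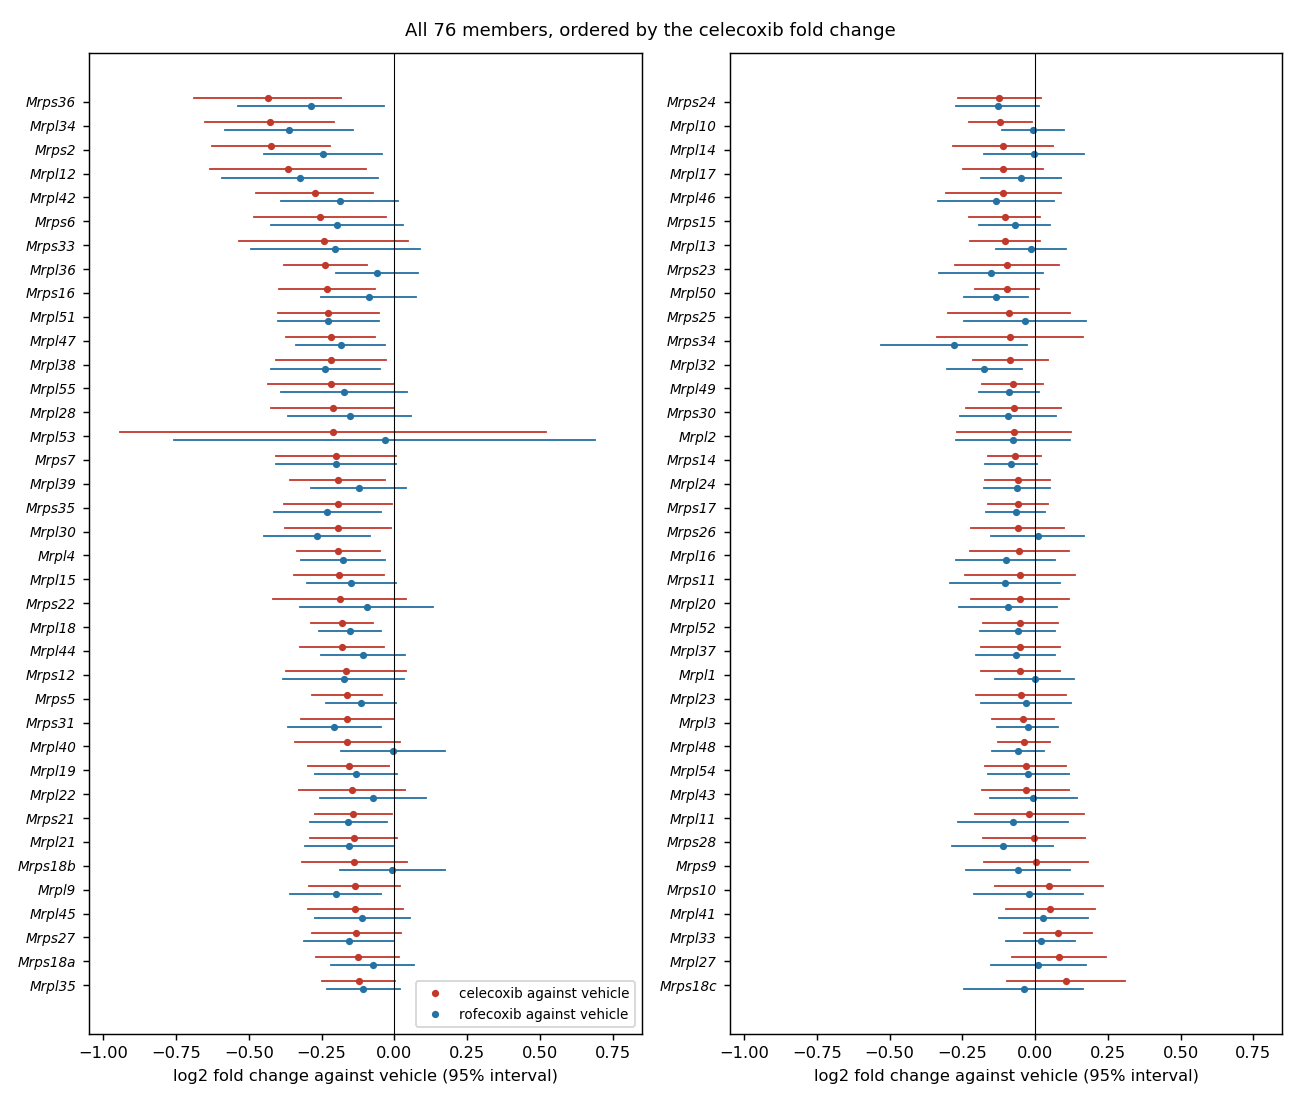
Log2 fold change against vehicle of all 76 members with 95% intervals, ordered by the celecoxib value, for celecoxib (red) and rofecoxib (blue). Most points lie left of 0, 70 of 76 with celecoxib and 72 of 76 with rofecoxib, and 51 and 57 of the intervals span 0.

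Rofecoxib against vehicle gave a similar pattern of small differences, with the same 5 vehicle libraries as reference. Of 76 members, 72 had a negative log2 fold change, against 50.3% of all genes tested. The members' median was -0.10, a fold of 0.932, and that of all genes was -0.0007. In edgeR's quasi-likelihood test 0 members were called (background 0%), the smallest adjusted p was 0.896, and DESeq2 and limma-voom called 0 too. At an unadjusted p under 0.05, 19 members were lower and 0 higher, beside 3.71% lower and 1.47% higher over all genes. That count was 7, with a median of -0.06, without vehicle library 5, beside 1.91% of all genes lower in that fit. It was 12 without rofecoxib library 3, beside 2.54%, and 3, with a median of -0.05, with the adipocyte covariate, beside 1.37%. The Mrpl genes had a median of -0.09 and the Mrps genes -0.11. In size, 12 members were below -0.2 and 0 below -0.4.

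The lowest p with rofecoxib was that of Mrpl34, at a log2 fold change of -0.36 ± 0.10 (adjusted p 0.896). It was 1 of 2 members whose rofecoxib libraries all lay below all vehicle libraries, against 0.72% of all genes; 0 members, against 0.436% of genes, had every one above. The other was Mrpl9, named here after its values were seen, with 29.1, 29.3, 28.1, 27.9 and 26.9 CPM with rofecoxib, 30.4, 29.9, 32.6, 32.4 and 37.3 with vehicle and 33.1, 25.7, 28.6, 32.1 and 28.4 with celecoxib. Its rofecoxib values were close together just under the vehicle range, while the celecoxib values spanned both. The log2 fold change with rofecoxib was -0.20 ± 0.07 (adjusted p 0.896).

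Another 5 members led the rofecoxib comparison, all large-subunit genes but Mrps31. Mrpl30 averaged 27.2 ± 1.90 CPM against 32.7 ± 3.84 with vehicle (SD, n = 5), a log2 fold change of -0.27. Mrpl51, highest per coding length, averaged 35.5 ± 1.34 against 41.5 ± 5.33, or -0.23. Mrpl32, whose precursor is cut by the inner-membrane m-AAA protease before it joins the ribosome, averaged 12.4 ± 0.447 against 13.97 ± 1.06, or -0.17. Each of these had all 5 rofecoxib libraries below the vehicle median. Mrps31 had -0.21 and Mrpl18 -0.15, and the adjusted p of all 5 was 0.896.

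The other genes described with celecoxib gave these values with rofecoxib. Mrps36 had -0.29, Mrps2 -0.25 and Mrpl12 -0.32 (adjusted p 0.896 each). Mrps12 had -0.17 (adjusted p 0.992) and Mrpl45 -0.11 (adjusted p 1). Values between -0.1 and 0.1 were Mrpl33 at 0.02, Mrpl41 at 0.03, Mrpl27 at 0.01, Mrps18a at -0.07, Mrps18b at -0.01 and Mrps18c at -0.04. Several of these last signs turned with the choice of scaling or with 1 library left out, as given among the processing results.

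Celecoxib against rofecoxib set the 2 drugs side by side at doses of 30 and 10 mg/kg, which differ. The members showed no common direction: 40 had a negative and 36 a positive log2 fold change (48.2% negative over all genes), and the median was -0.01. In edgeR's test 0 members were called (background 0%, smallest adjusted p 0.649). DESeq2 called 0 members among the 19 genes it called in this comparison, and limma-voom called 0 genes. At an unadjusted p under 0.05, 2 were lower and 0 higher, beside 2.91% and 4.05% of all genes. These were Mrpl36, with a log2 fold change of -0.18 (interval -0.32 to -0.04), and Mrpl10, with -0.11 (adjusted p 0.707). The 95% interval spanned 0 for 74 of 76 members. The median interval ran from -0.17 to 0.15, and 75 of the 76 intervals lay within 0.5 on either side of 0; a p that misses the threshold does not show that the drugs act alike. No member had libraries that did not overlap between the drugs, against 0.634% of all genes with celecoxib below and 0.687% with celecoxib above.

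Among single members in this comparison, Mrps2 had -0.18 (interval -0.38 to 0.02), Mrps16 -0.14 (interval -0.31 to 0.02) and Mrpl40 -0.16 (interval -0.34 to 0.02). With the opposite sign were Mrps34 at 0.19 (interval -0.06 to 0.44), Mrps18c at 0.15 (interval -0.06 to 0.35) and Mrpl32 at 0.09 (interval -0.04 to 0.22). Mrps36 had -0.15, Mrps18b -0.13, Mrps18a -0.05, Mrpl12 -0.04, Mrpl45 -0.02 and Mrps12 0.01. None of these intervals excluded 0.

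The rest of the mitochondrial gene expression pathway was listed by function. The listed symbols matched 83 rows, of which 82 were tested; symbols with no row were not analysed here. Of the 82, 0 were called by edgeR in either drug's comparison with vehicle, and 24 were lower and 2 higher at an unadjusted p under 0.05 with celecoxib and 7 lower and 0 higher with rofecoxib. The background over all genes at that threshold is 7.18% and 3.71% lower, and every count of lower or higher genes per list below uses the same unadjusted threshold. The medians over the 82 were -0.08 and -0.04. Of the 7 mitoribosome proteins under other symbols, 1 was lower at that threshold with each drug, 6 were negative with each, and their medians were -0.05 and -0.08. Ptcd3, a pentatricopeptide repeat protein of the small subunit, had a log2 fold change of -0.23 with celecoxib (adjusted p 0.318), and Aurkaip1, another small-subunit protein, -0.14 with rofecoxib (adjusted p 0.965). Dap3, a GTP-binding small-subunit protein, was close to even at -0.03 and 0.00.

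Of 13 translation factors, 9 had a negative fold change with each drug, and at an unadjusted p under 0.05, 6 were lower with celecoxib and 2 with rofecoxib. Tufm, the elongation factor that brings transfer RNA to the ribosome, averaged 45.5 ± 9.01 CPM with vehicle, 33.7 ± 4.998 with celecoxib and 36.1 ± 2.58 with rofecoxib (SD, n = 5). Its log2 fold changes were -0.43 (adjusted p 0.275) and -0.34 (adjusted p 0.896). Mrrf, which recycles the ribosome after termination, had -0.22 and -0.14, and the translocase gene Gfm1 had -0.09 and -0.18. Of 21 genes listed with the mitochondrial aminoacyl-tRNA synthetases, which charge the transfer RNAs, 18 were negative with celecoxib and 13 with rofecoxib. At an unadjusted p under 0.05, 8 and 2 were lower, and the medians were -0.13 and -0.03. The symbols listed also included the amidotransferase subunits Qrsl1, Gatb and Gatc, and Gars and Kars, which serve the cytosol as well. Ears2, for glutamate, had -0.34 with celecoxib (adjusted p 0.275) and 0.01 with rofecoxib, while Cars2, for cysteine, had -0.35 and -0.29.

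The 20 genes of ribosome assembly and ribosomal RNA modification had medians near 0, 0.01 and -0.03, with 3 lower and 1 higher at an unadjusted p under 0.05 with celecoxib and 1 lower with rofecoxib. Rnmtl1, a methyltransferase of the large ribosomal RNA, had -0.45 and -0.21, and the small-subunit assembly factor Rbfa had -0.11 and -0.13. Of 11 genes of mitochondrial transcription and DNA replication, 9 were negative with celecoxib and all 11 with rofecoxib, and 2 and 0 were lower at an unadjusted p under 0.05; Lrpprc, which stabilises mitochondrial messenger RNA, had -0.18 and -0.07. Of 10 upstream regulators, 4 were lower and 1 higher at an unadjusted p under 0.05 with celecoxib, and 1 was lower with rofecoxib. The coactivator gene Ppargc1b had -1.10 (adjusted p 0.304) and -0.56 (adjusted p 1), Ppargc1a -0.61 and -0.47, and the nuclear receptor gene Esrra -0.43 and -0.29. Nrf1, Gabpa and Yy1, whose motifs were searched in the promoters, had 0.10, 0.01 and 0.08 with celecoxib and 0.10, 0.02 and -0.02 with rofecoxib.

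The members were then set beside the nuclear subunits of the respiratory chain and the cytosolic ribosomal proteins. The 82 chain subunits tested had medians of -0.27 with celecoxib and -0.29 with rofecoxib, with 58 and 66 lower at an unadjusted p under 0.05 and 0 higher. The 77 cytosolic ribosomal proteins had medians of 0.02 and -0.03, with 0 and 1 lower. They were listed by symbols of Rpl or Rps followed by a number. That pattern admits paralog symbols such as Rpl22l1 and leaves out Rplp0, Rplp1, Rplp2 and Rpsa. The members' medians of -0.12 and -0.10 lay between these lists; the difference between lists was not tested.

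The mean log2 CPM of the 76 members was 4.36, 4.31, 4.24, 4.38 and 4.52 in vehicle libraries 1 to 5, 4.28, 4.19, 4.24, 4.31 and 4.16 with celecoxib, and 4.28, 4.25, 4.20, 4.29 and 4.24 with rofecoxib. Vehicle library 5 was the highest and celecoxib library 5 the lowest, and vehicle library 3 lay inside the range of both drug groups. Without vehicle library 5 the member median was -0.08 with celecoxib and -0.06 with rofecoxib, and 13 and 7 members were lower at an unadjusted p under 0.05, beside 4.57% and 1.91% of all genes in the same fits. Without celecoxib library 5 there were 13 such members, beside 6.69% of genes, and without rofecoxib library 3 there were 12, beside 2.54%.

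**Figure D4:**
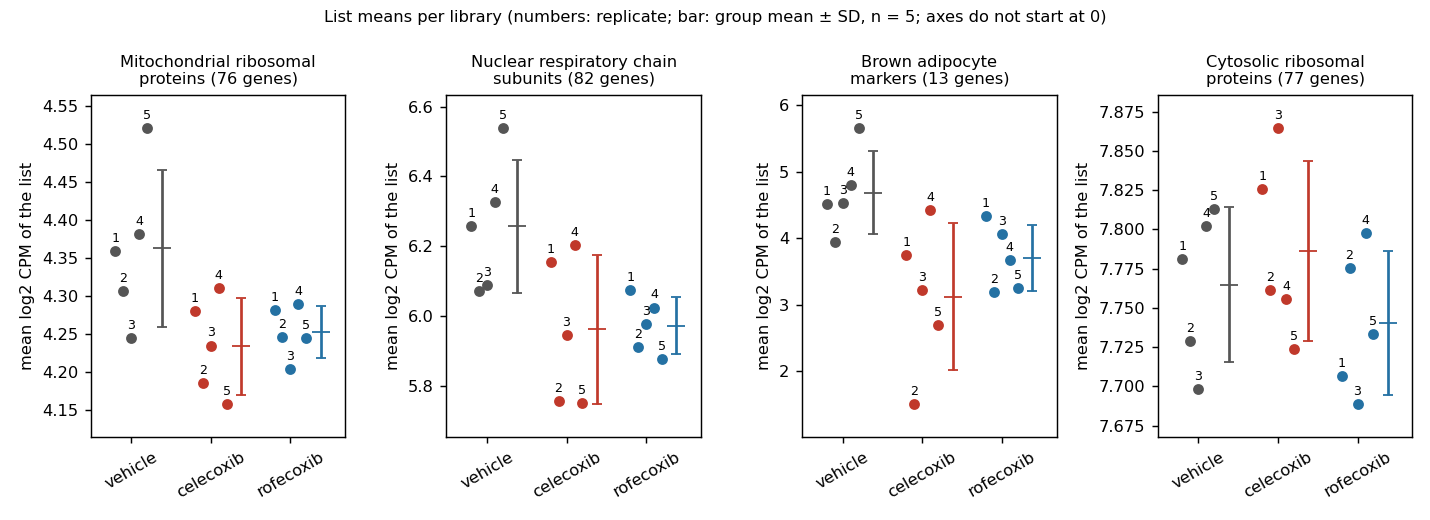
Mean log2 CPM per library of the members, the nuclear respiratory chain subunits, the brown adipocyte markers and the cytosolic ribosomal proteins, with the replicate number above each point and the group mean ± SD (n = 5); the axes do not start at 0. Vehicle library 5 is highest in the first 3 panels, with a member mean of 4.52.

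Most adipocyte markers also had lower values in the drug groups. All 13 brown adipocyte markers tested had negative fold changes with both drugs, with medians of -1.28 and -0.996, and 12 and 7 were lower at an unadjusted p under 0.05. Their summed level ranged from 462.4 to 1814 CPM with vehicle, 104.1 to 647.3 with celecoxib and 246.4 to 572.8 with rofecoxib. The defining gene Ucp1, the uncoupling protein of brown fat, ranged from 165 to 996, 6.63 to 243 and 60.9 to 217 CPM, and no marker was 0 in every library. Ppargc1a is in this list as well as among the upstream regulators. The brown list also shares Cox7a1 and Cox8b with the nuclear respiratory chain subunits. The brown marker mean was highest in vehicle library 5 (5.65 log2 CPM) and lowest in celecoxib library 2 (1.51). Its order of libraries was like that of the members in part and differed in places. With celecoxib, libraries 4, 1 and 3 came first in that order in each list. Their member means were 4.31, 4.28 and 4.24 and their brown means 4.42, 3.75 and 3.22. Celecoxib libraries 2 and 5 were lowest in each, in opposite order. With vehicle, library 4 followed library 5 in each list, at 4.38 and 4.80. Vehicle library 3 had the lowest member mean of its group (4.24), with a brown mean of 4.52, above that of vehicle library 2 (3.94). Rofecoxib library 3 had the lowest member mean of its group (4.20), with a brown mean of 4.07, exceeded there only by library 1 (4.33). The 14 white and general adipocyte markers had medians of -0.87 and -0.53, with summed levels of 2749 to 5731, 1815 to 4289 and 2243 to 4174 CPM. Of these 14, 12 were negative with celecoxib and 14 with rofecoxib, and 9 and 1 were lower at an unadjusted p under 0.05. Smooth muscle markers had medians of 0.10 with each drug and endothelial markers -0.21 with each. The 5 erythroid markers were all negative, with medians of -0.72 and -1.30, and the 8 sympathetic neuron markers were all positive, with medians of 1.34 and 1.01; 0 genes of either list passed an unadjusted p of 0.05. Their summed levels ranged from 30.77 to 329.6, 40.11 to 240.4 and 21.59 to 139.2 CPM for the erythroid list and from 8.93 to 257.7, 4.61 to 603.8 and 7.01 to 387.9 CPM for the neuron list, with vehicle, celecoxib and rofecoxib in turn. With the mean of the sympathetic neuron and Schwann cell markers as a covariate the member medians were -0.12 and -0.10, with 25 and 17 members lower at an unadjusted p under 0.05, beside 7.72% and 3.86% of all genes; the part of the erythroid list was not tested.

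With the mean of the adipocyte markers as a covariate, the member median was -0.026 with celecoxib and -0.05 with rofecoxib, and 49 and 60 members were negative. In these fits 4 members were lower and 1 higher at an unadjusted p under 0.05 with celecoxib, beside 3.34% of all genes lower. With rofecoxib 3 were lower and 0 higher, beside 1.37% lower. In either direction, 1281 and 345 of the 15134 genes tested passed that p. With celecoxib library 2 and vehicle library 5 both left out, a choice made after seeing the data, the medians were -0.07 and -0.06 and 7 members were lower with each drug, beside 3.75% and 2.03% of all genes. The part of adipocytes in the members' values was not tested. The markers themselves differed between the groups, with brown means of 4.69, 3.12 and 3.70 log2 CPM with vehicle, celecoxib and rofecoxib. The covariate fits therefore cannot tell marker level and drug group apart. In such bulk samples, fewer cells of a type and less RNA per cell cannot be told apart.

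**Figure D5:**
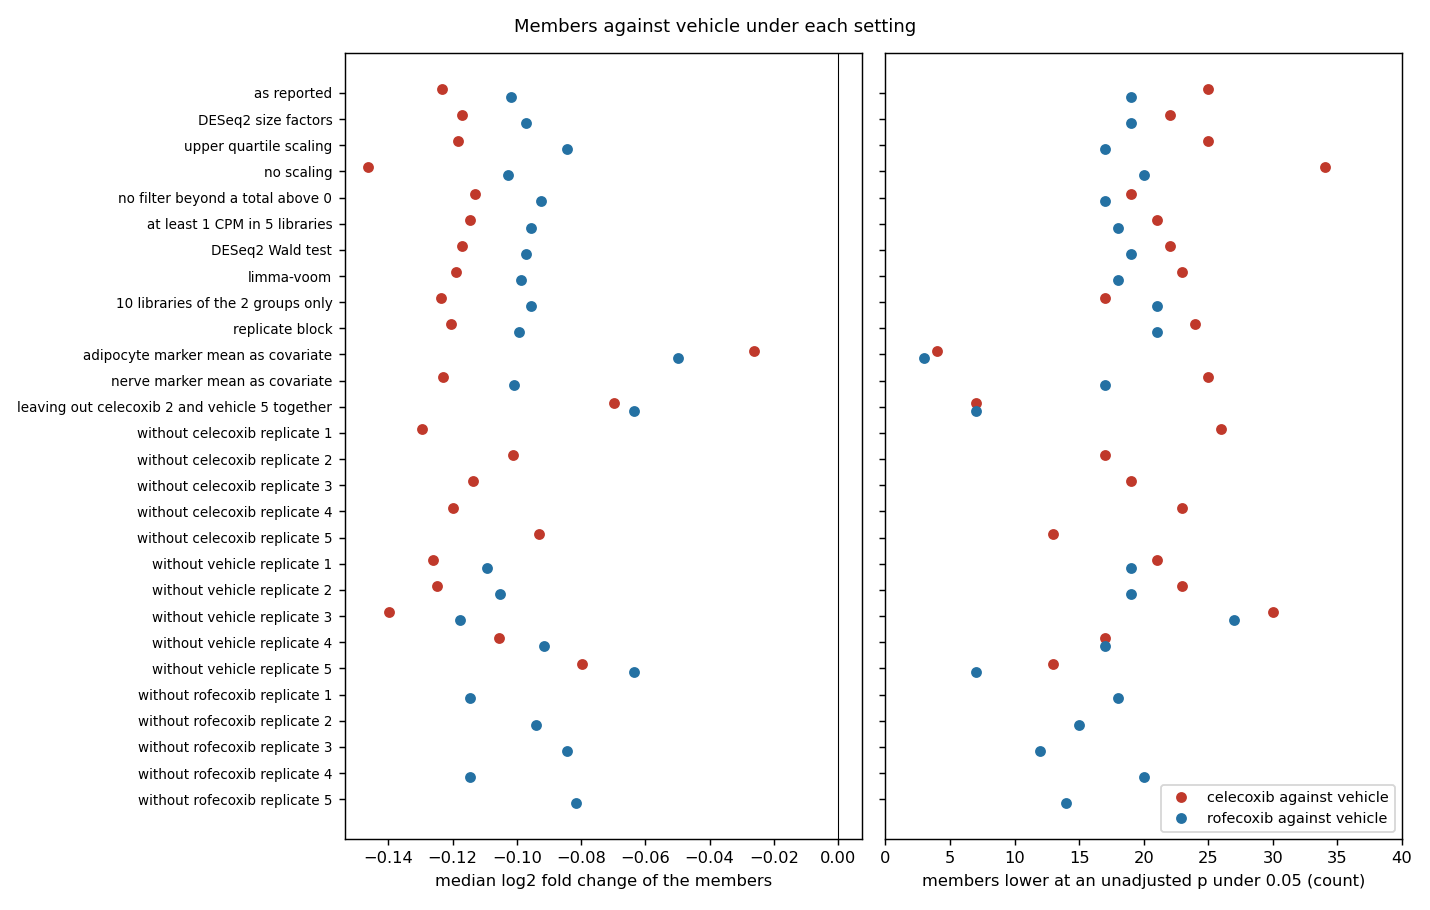
Median log2 fold change of the members (left) and number of members lower at an unadjusted p under 0.05 (right) against vehicle, under each setting of the analysis. Every median is negative. The adipocyte covariate gives the values nearest 0, with 4 and 3 members lower, beside 3.34% and 1.37% of all genes.

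Many members share their span with other genes. In the deposited mm9 coordinates, 38 of the 76 overlapped another tested row, in 48 pairs, of which 38 were on opposite strands, 7 on the same strand and 3 had a strand missing. Whether the counting used strand is not stated in these sources, and reads of such pairs may not be told apart. Mrpl47 overlaps Ndufb5, a complex I subunit gene with log2 fold changes of -0.39 and -0.35, and Mrps12 overlaps Sars2, a mitochondrial synthetase gene with -0.05 and 0.09. The 38 members with no overlapping tested row had medians of -0.11 and -0.09, with 14 and 9 lower at an unadjusted p under 0.05. The members lie on 17 chromosomes, with 10 on chromosome 11, 8 on 17, 7 on 6 and 6 on 7.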

How the data were processed

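The deposited table holds raw counts per gene for 15 libraries made by the authors; per the labels the RNA was polyA-selected, and the submitters' processing notes name CASAVA 1.8.2, STAR 2.5.2a and the mm9 genome. No source used here gives the counting tool, its use of strand or the day each library was made. The libraries were made on several days, so a batch by day could not be examined. Counts were scaled by TMM (factors 0.953 to 1.04) and filtered by edgeR's filterByExpr, leaving 15134 genes with 99.95% of counts. One edgeR 4.0.16 quasi-likelihood fit (R 4.3.3, robust) over all 15 libraries gave 3 contrasts, with Benjamini-Hochberg adjustment over all genes tested. The common biological coefficient of variation was 0.228. Totals within 0.0971% of each other are unusual; no source used here says whether reads were reduced to a common number before counting, and the totals need not be the sequencing depth. Log2 CPM used a prior count of 2. Alternatives included DESeq2 1.42.0, limma 3.58.1, other scalings and filters, a replicate block, marker covariates and leaving out each library. The fitting script was tested on simulated data. Lengths came from GENCODE M21 and promoter sequences from RefSeq (GRCm38.p6).

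Members and lists were chosen with earlier results of these data known. Named genes were, per comparison, the 6 members of smallest p, the 3 of smallest p with the opposite sign, fixed members of known role, and the 2 genes of smallest p per pathway list; levels and spread named the 3 at each end. The labels describe separate animals. Libraries of the same number did not deviate together (6 of 15 pairs with a correlation over 0.1), so the numbers were not used as pairs. No 2 libraries of 1 group agreed within sampling noise; pairs between groups were not examined.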

Additional observations from a re-analysis of the deposited data

Results flagged for a closer look

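Of 99 groups of 5 libraries examined, 3 held a library far from the other 4 by Dixon's ratio, above its critical value of 0.71; chance alone gives about 1 in 20. Mrpl18 was 34.6 CPM in celecoxib library 2, against 30.1 to 31.2 in the other celecoxib libraries. Mrpl27 was 21.9 CPM in rofecoxib library 2, against 20.6 to 21.0 in the others. Mrps18c was 16.5 CPM in rofecoxib library 1, against 14.3 to 14.8 in the others.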

How the results depend on the processing

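Across the settings run, the member medians against vehicle stayed negative, and edgeR called 0 members throughout. DESeq2 called 2 members with celecoxib, Mrps2 and Mrpl34, whose adjusted p over the other alternatives ran from 0.0851 to 0.578 and from 0.0735 to 0.607. The adipocyte covariate gave a celecoxib median of -0.026 and 4, 3 and 1 members lower at an unadjusted p under 0.05 in the celecoxib, rofecoxib and drug-to-drug comparisons, beside 3.34%, 1.37% and 4.26% of all genes. Under it 1, 0 and 2 members were higher, where 1281, 345 and 1471 of 15134 genes passed that p in either direction. The drug-to-drug median turned to 0.013, with 29 members negative. Leaving out celecoxib 2 and vehicle 5 together gave 7 and 7 lower against vehicle, beside 3.75% and 2.03% of all genes. Between the drugs, 1 member was lower with no filter and 1 with the replicate block, beside 2.23% and 3.48% of all genes. Under the block 24 and 21 were lower against vehicle, beside 7.64% and 3.89%, and the block changed no call. Leaving out 1 library gave medians of -0.14 to -0.08, -0.12 to -0.06 and -0.02 to 0.01 in the 3 comparisons, and 0 to 0 calls. Counts of lower members were 13 to 30, 7 to 27 and 1 to 3. In the same fits 4.57% to 8.13%, 1.91% to 4.63% and 1.91% to 4.38% of all genes were lower. Among these fits, the highest member counts against vehicle came without vehicle 3. The cause of these shifts was not tested.

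Signs turned for small log2 fold changes. With rofecoxib, Mrps18b was 0.0101 with upper quartile scaling, 0.00207 with no filter, 0.000335 with the 1 CPM filter, 0.000368 in the 10-library fit, 0.0200 with the adipocyte covariate and 0.0380 with celecoxib 2 and vehicle 5 left out. With 1 library left out it ran from -0.0467 to 0.0381, Mrps18c from -0.0786 to 0.000231, Mrpl41 from -0.00236 to 0.0739 and Mrpl27 from -0.00579 to 0.0438. The covariate gave -0.00897 for Mrpl33 and 0.0146 for Ppargc1a with rofecoxib, 0.0180 for Mrpl45 with celecoxib, and 0.0341 for Mrpl45 and 0.0628 for Mrpl12 between the drugs. Between the drugs Mrps12 was -0.00268 with upper quartile scaling and -0.0118 with no scaling. With 1 library left out it ran from -0.0368 to 0.0512, Mrpl45 from -0.0546 to 0.00981 and Mrpl12 from -0.118 to 0.00304. With celecoxib 2 and vehicle 5 left out, Mrpl45 was 0.00157 and Mrpl12 0.00667. Of the other values of named genes, 1466 kept direction and side of the threshold.

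Depth limits Mrpl53 most; the 1 CPM filter and the 10-library fits left it out.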
